A study of Mus musculus with 79 samples.

Results

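Tal1, Tal2, Lyl1, Gata1, Gata2, Gata3 and Lmo2 encode transcription factors that act together in blood and in developing neurons, and 7 of 7 were found by name among the 25965 genes of the RNA-seq table. They were selected on the knowledge that Tal1 RNA is higher in the mutant hypothalamus, so that the RNA difference of Tal1 is given here as a description without a test. The question put to the data was whether Tal1 is higher alone or together with its partners, and whether H3K4me3, H3K27me3 and H3K36me3 at these genes differ between the genotypes.

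Hypothalamus was taken from C57BL/6Babr mice at about 14 weeks of age, without treatment. The +/+ animals carry wild-type Dnmt3a, which encodes a DNA methyltransferase. The Δ/D329A animals carry a maternal allele that lost an exon by Cre expressed from the oocyte promoter Zp3, and a paternal allele with the D329A point mutation in the PWWP domain, so that the mutant allele is their only functional one in every tissue. Expression was measured in 5 +/+ and 4 Δ/D329A animals, and each mark together with the input in 3 +/+ and 3 Δ/D329A animals.

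TAL1 and LYL1 are basic helix-loop-helix proteins that pair with E proteins such as TCF3 and bind E-boxes. LMO2 bridges this pair, through LDB1, to GATA1 or GATA2, and the complex drives genes of blood stem cells, red cells and endothelium. In the embryonic midbrain and spinal cord, Tal1, Tal2, Gata2 and Gata3 instead direct neurons to a GABAergic fate. H3K27me3 is laid down by Polycomb over silent developmental genes, H3K4me3 marks active or poised starts, and H3K36me3 follows transcription through gene bodies.

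The RNA-seq libraries held 5495893 to 9729552 reads on genes in +/+ and 3837324 to 6523776 in Δ/D329A. The ChIP-seq libraries held 12676361 to 30207875 uniquely mapped reads, to which the reads in each 2 kb tile are scaled (RPM). The 9 RNA-seq libraries had Xist at 3.80 to 4.59 log2 RPKM and no read of Ddx3y, whereas the 6 ChIP-seq inputs had chromosome X at 0.415 to 0.429 of the autosomal mean and chromosome Y at 0.0461 to 0.0488 of it, so that RNA and marks were measured in animals of different sex. Hypothalamic neuropeptides were abundant, with Pmch at means of 7.96 log2 RPKM in +/+ and 7.57 in Δ/D329A and Hcrt at 6.19 and 5.94. In bulk tissue, fewer cells with a transcript and less transcript per cell cannot be told apart.

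Tal1 spans chr4:115056426-115071755 on the plus strand in GRCm38, and the H3K4me3 difference below lies at a site inside this gene rather than at its starts. To place the site, 250 bases are printed before the first and before a further annotated start of Tal1, then across the end of the first coding exon, in the tiles where H3K4me3 rose most in RPM, and before the start of Lyl1, whose RNA also separated the genotypes. Capitals mark E-boxes, written CANNTG, and GATA words on both strands, and no marked words overlap in these windows. The GATA words searched were AGATAA and AGATAG, and likewise TGATAA and TGATAG. Promoter sequences are those of RefSeq for GRCm38.p6, where 6 of the 7 genes matched an entry, and the site was read from the genome of the same build.
Tal1 before the first start, chr4:115056176-115056425, plus strand: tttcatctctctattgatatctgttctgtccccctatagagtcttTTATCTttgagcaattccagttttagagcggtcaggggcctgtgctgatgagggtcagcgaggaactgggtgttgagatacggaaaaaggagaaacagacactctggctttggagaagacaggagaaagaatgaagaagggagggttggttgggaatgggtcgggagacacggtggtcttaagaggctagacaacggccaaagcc
Tal1 before the further start, chr4:115057561-115057810, plus strand: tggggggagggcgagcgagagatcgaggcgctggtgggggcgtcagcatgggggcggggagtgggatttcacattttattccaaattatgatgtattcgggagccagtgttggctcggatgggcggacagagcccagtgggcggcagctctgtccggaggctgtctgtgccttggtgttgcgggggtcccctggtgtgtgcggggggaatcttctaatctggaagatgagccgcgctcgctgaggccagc
Tal1 inside the gene, chr4:115063376-115063625, plus strand: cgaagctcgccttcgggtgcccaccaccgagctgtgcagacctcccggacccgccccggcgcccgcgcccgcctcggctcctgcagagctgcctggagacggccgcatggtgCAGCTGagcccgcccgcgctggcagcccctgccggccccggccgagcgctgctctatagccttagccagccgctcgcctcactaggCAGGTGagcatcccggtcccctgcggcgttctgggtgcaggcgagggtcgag
Lyl1 before the start, chr8:84701207-84701456, plus strand: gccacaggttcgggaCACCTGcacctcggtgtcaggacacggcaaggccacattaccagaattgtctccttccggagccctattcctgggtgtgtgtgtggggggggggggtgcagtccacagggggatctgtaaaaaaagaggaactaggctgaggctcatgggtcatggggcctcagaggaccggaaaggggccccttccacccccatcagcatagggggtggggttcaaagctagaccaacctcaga

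The window at the first Tal1 start held 1 GATA word, no E-box and 6 CpG, which is the median number of CpG over 32851 promoters of the same length. The window at the further start held neither word and 16 CpG. The window inside the gene held 2 E-boxes, no GATA word and 28 CpG, more than 92.4% of those promoters. The window before Lyl1 held 1 E-box and 5 CpG. Over all promoters, 66.2% held an E-box and 26.5% a GATA word, so that finding either in a window of this size is common.

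Among the basic helix-loop-helix genes, Tal1 was higher in Δ/D329A, Lyl1 did not overlap between the genotypes but did not pass the test, and Tal2 was barely detected in either genotype. Tal1 stood at -1.24, -2.51, -2.07, -4.09 and -3.88 log2 RPKM in the +/+ libraries, from 34, 12, 14, 4 and 5 reads. In Δ/D329A it stood at 0.68, 0.33, 0.66 and 0.54, from 103, 58, 92 and 71 reads. The 4 mutant libraries lay close together and above every +/+ library, among which replicate 1 was the highest. The mean level of 0.193 ± 0.149 RPKM (SD, n = 5) in +/+ stood against 1.48 ± 0.159 RPKM (SD, n = 4) in the mutant. The difference of the log2 levels was 3.31 (SE 0.52). On log2(RPKM + 1), in place of the deposited log2 RPKM, the difference was 1.06. Among the 17839 genes tested, those with 4 or more libraries at 0.1 RPKM or higher, Tal1 had rank 11 by log2 difference. Tal1 reached this level through the Δ/D329A libraries, so that the rank is a description only.

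Lyl1 is a close relative of Tal1 that is active in blood and endothelial cells and lies at chr8:84701457-84704715, inside Nfix and on the opposite strand. It stood at -3.46, -4.81, -2.59, -3.22 and -3.34 log2 RPKM in +/+, from 3, 1, 4, 3 and 3 reads. It stood at -2.13, -1.44, -2.0 and -1.52 in Δ/D329A, from 6, 7, 6 and 7 reads. The genotypes did not overlap, as was also so, in this direction, for 1.78% of all genes tested. The log2 difference was 1.71 (SE 0.39) and did not pass the test, with a limma adjusted p of 0.195 over all genes and an exact two-sided permutation p of 0.0159 before adjustment, where 0.00794 is the smallest this design allows. Pooled reads gave a ratio of 2.99 per library size, with a 95% interval of counting error from 1.5 to 6.19. Lyl1 reached the level for testing through the Δ/D329A libraries, and its limma adjusted p without that filter was 0.13. Under the other settings run, the adjusted p ranged from 0.0482 to 0.412, and the log2 difference was 0.24 on log2(RPKM + 1), 1.02 on log2(RPKM + 0.1) and at most 2.14. The study's supplement names a strand-specific kit, but the counting is not stated to use strand, so that reads of Nfix may be counted for Lyl1 where they overlap. Nfix differed by 0.04 (SE 0.16, limma adjusted p 0.971).

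Tal2 is a further relative that acts in midbrain GABAergic neurons, at chr4:53779705-53788712. It had 2, 1, 5, 2 and 0 reads in +/+ and 4, 3, 0 and 2 in Δ/D329A, and did not reach the level for testing. The genotypes overlapped, and the ratio of pooled reads was 1.45 (95% interval of counting error 0.521 to 3.97, exact permutation p 0.357). A difference of Tal2 was not detectable at this depth.

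The Gata genes overlapped between genotypes, and Gata1 and Gata3 had few reads. Gata2, which acts in blood stem cells and in GABAergic neurons, lies at chr6:88193891-88207030 and had 30, 32, 31, 18 and 24 reads in +/+ and 31, 14, 13 and 24 in Δ/D329A. Its levels overlapped at 0.512 ± 0.139 RPKM (SD, n = 5) and 0.491 ± 0.175 (SD, n = 4). The log2 difference was -0.09, with a 95% interval from -0.75 to 0.56 (limma adjusted p 0.957, exact permutation p 0.77).

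Gata3, a factor of T cells and of midbrain and spinal neurons at chr2:9857078-9890034 on the minus strand, had 0, 1, 2, 3 and 3 reads in +/+ and 5, 1, 4 and 1 in Δ/D329A. The genotypes overlapped, and the ratio of pooled reads was 1.97 (95% interval of counting error 0.741 to 5.37, exact permutation p 0.349). Gata1, the red cell factor at chrX:7959260-7978071 on the minus strand, had 0, 1, 0, 2 and 1 reads in +/+ and 0 in each of the 4 Δ/D329A libraries. Gata1 was therefore at the limit of detection in both genotypes, and no fold is given.

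Lmo2, the bridging factor at chr2:103957986-103981878, was the most abundant of the 7 and did not differ detectably. It had 114, 82, 69, 74 and 50 reads in +/+ and 82, 45, 64 and 45 in Δ/D329A. The levels of 2.25 ± 0.548 RPKM (SD, n = 5) and 2.16 ± 0.319 (SD, n = 4) overlapped. The log2 difference was -0.03, with a 95% interval from -0.50 to 0.45 (limma adjusted p 0.989, exact permutation p 0.944).

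**Figure D1:**
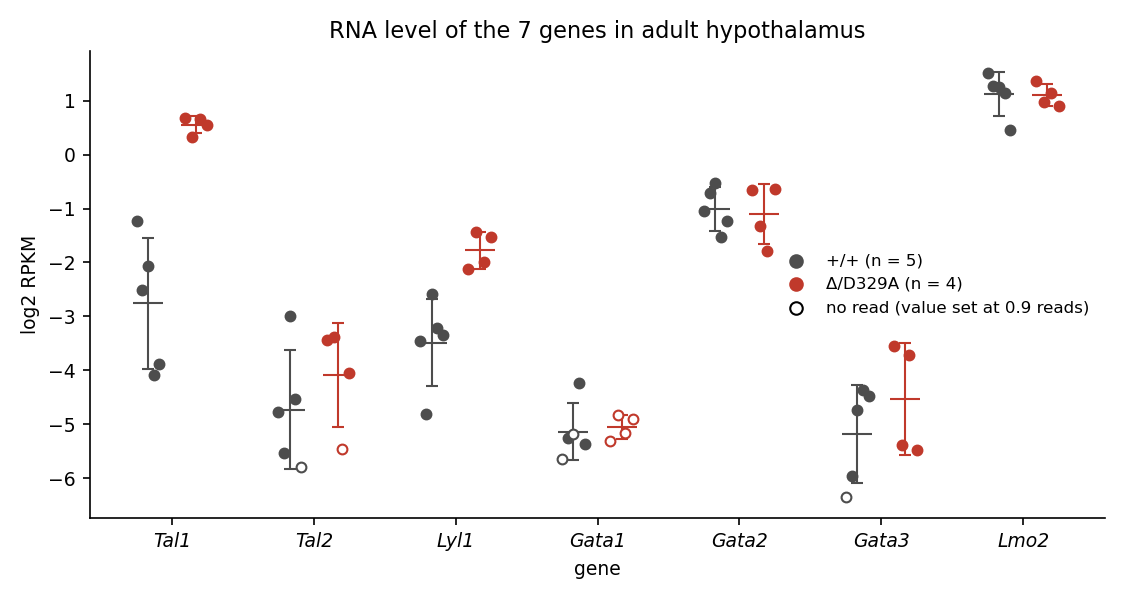
Deposited log2 RPKM of the 7 genes, with 1 point per library (5 +/+ and 4 Δ/D329A), bars for the mean ± SD of each genotype and open points for libraries without a read, whose value was set at 0.9 reads. The Tal1 and Lyl1 points of Δ/D329A lie above all +/+ points, whereas those of Gata2 and Lmo2 overlap.

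Of the 7 genes, 4 reached the level for testing, and of the 3 besides Tal1, 0 were called by limma at an adjusted p under 0.01, against 0.107% of all genes tested. At an unadjusted p under 0.05 there was 1, Lyl1, where 7.62% of all genes tested had such a p. edgeR on whole reads called 0 of the 2 that passed its filter, Gata2 and Lmo2, against 0.554% of all genes. Lyl1 did not pass that filter and was not tested by edgeR. DESeq2 called 0, against 1.22%. In +/+ the order of mean RPKM was Lmo2, Gata2, Tal1, Lyl1, Tal2, Gata3 and Gata1, and only the ranges of Lmo2 and Gata2 were separate between neighbours. In Δ/D329A, Tal1 came between Lmo2 and Gata2, and its range was separate from both. Lyl1 was there separate from Tal2, and the remaining neighbours overlapped.

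The other parts of the complex showed no call by limma. Of 15 LIM-domain and cofactor genes, including Ldb1 at a log2 difference of 0.19 (SE 0.20), 15 were tested, limma called 0, 0 had an unadjusted p under 0.05, edgeR and DESeq2 called 0, and the median difference was 0.00 beside 0.06 for all genes. Runx1t1 at 0.29 (SE 0.17), Lmo1 at 0.24 (SE 0.31) and Lmo3 at -0.22 (SE 0.18) had the largest differences of that list. Of 7 E protein and Id genes limma and edgeR called 0, and the median was 0.16. DESeq2 called Id4, against 1.22% of all genes, and Id4 alone had an unadjusted p under 0.05, against 7.62%. The largest differences of that list were those of Id4 at 0.48 (SE 0.21), Id1 at 0.46 (SE 0.23) and Id3 at 0.40 (SE 0.31), which sequester E proteins, while the fourth Id gene, Id2, stood at -0.19 (SE 0.22). Among the other Gata and Fog genes, 3 of 6 were tested, limma, edgeR and DESeq2 called 0, and the median was 0.05. Zfpm1, which encodes the GATA1 cofactor FOG1, was the 1 gene with an unadjusted p under 0.05, against 7.62% of all genes. Zfpm1 differed by 0.67 (SE 0.26, limma adjusted p 0.355). Its levels in +/+ were 0.28, -0.32, 0.18, -0.96 and -0.24 log2 RPKM and in Δ/D329A 0.45, 0.65, 0.07 and 0.67, so that the groups overlapped.

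Known targets and fellow factors of the complex did not pass the test either. Of 16 haematopoietic factors 10 were tested and 0 called by limma (median 0.18), with the largest differences at Sfpi1, the microglial and myeloid factor PU.1, at 1.0 (SE 0.40), Runx2 at 0.94 (SE 0.27) and Ikzf1 at 0.57 (SE 0.28). Of 14 erythroid targets 6 were tested and 0 called (median 0.22), with the alpha globin genes Hba-a2 and Hba-a1, near-identical copies whose reads may be shared, at 0.77 (SE 0.30) and 0.63 (SE 0.27) and Tfrc at -0.39 (SE 0.16). Of 12 targets in stem and endothelial cells 10 were tested and 0 called (median 0.11), with Angpt2 at 1.1 (SE 0.43), Vwf at 0.73 (SE 0.24) and Itga2b at 0.54 (SE 0.28). Of 20 genes of the GABAergic programme 14 were tested and 0 called (median -0.11), and the proneural factor Nhlh2 stood at -0.72 (SE 0.20) and Sox14 at -0.70 (SE 0.32). The smallest limma adjusted p over these lists was 0.338. An unadjusted p under 0.05 was reached by 2, 3, 2 and 3 genes of the haematopoietic, erythroid, stem and endothelial, and GABAergic lists, to be read against the 7.62% of all genes, and edgeR and DESeq2 called 0 in each.

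Markers of cells that use these factors were compared by their summed RPKM. The 14 endothelial markers summed to 26.7 to 60.4 in +/+ and 35.3 to 48.4 in Δ/D329A, and 0 of 14 tested were called (median difference 0.14). The 8 mural markers summed to 31.3 to 45.4 and 29.0 to 43.9, with 0 of 8 called (median -0.15). The 10 microglial markers summed to 29.9 to 69.0 and 40.6 to 68.9, with 0 of 10 called, 9 of 10 higher and a median of 0.41. Of 8 erythroid markers, 5 were in the table and summed to 13.4 to 42.5 and 34.3 to 46.1, with 0 of 3 tested called (median 0.63). Of 7 mast cell markers only Hdc was tested and 0 called. Hdc, which histaminergic neurons of the hypothalamus also express, held 1878 reads in +/+ and 774 in Δ/D329A (log2 difference -0.52, SE 0.26), while the other 6, Cpa3 among them, had at most 4 reads per genotype. In these lists edgeR and DESeq2 also called 0, and an unadjusted p under 0.05 was reached by Vwf, Trem2, Hba-a1 and Hba-a2, where 7.62% of all genes had such a p.

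Markers of neighbouring brain regions included the only call by limma in these lists. Of 10 thalamic and habenular markers 9 were tested, and Pou4f1, a habenular POU factor, was called higher at 5.28 (SE 0.47, limma adjusted p 0.000607), with 0 to 5 reads in +/+ and at least 27 in each Δ/D329A library. Pou4f1 reached the level for testing through the Δ/D329A libraries, and its limma adjusted p without that filter was 0.0015. The list summed to 83.4 to 143 RPKM in +/+ and 110 to 149 in Δ/D329A, with a median of 0.52 and with Gbx2 at 1.79 (SE 0.45) and Rora at 0.75 (SE 0.19), which limma did not call and DESeq2 did. Of the 9 tested, 7 were higher, and 4, Pou4f1, Gbx2, Rora and Tcf7l2 (0.73, SE 0.22), had an unadjusted p under 0.05, where 7.62% of all genes did. Slc17a6 at -0.01 (SE 0.21) and Tac2 at -0.36 (SE 0.31) were not higher, and the habenular Chrnb4, below the level for testing, had 27 reads in +/+ and 2 in Δ/D329A. The 7 markers of midbrain GABAergic and V2b neurons other than Tal1, which include Tal2, Gata2 and Gata3, summed to 1.65 to 2.32 RPKM in +/+ and 1.29 to 1.69 in Δ/D329A. Of these 3 were tested, limma, edgeR and DESeq2 called 0, and the median difference was -0.50, with Sox14 at -0.70 (SE 0.32), Lhx1 at -0.50 (SE 0.22), which alone had an unadjusted p under 0.05, and Gata2 at -0.09 (SE 0.30). Of 9 pituitary markers 6 were tested and 0 called by limma, edgeR or DESeq2, with 0 at an unadjusted p under 0.05 (median -0.07). Of 20 hypothalamic markers 20 were tested and limma called 0 (median -0.06), with 4 at an unadjusted p under 0.05, where 7.62% of all genes had such a p. The differences of these 4 were all negative, with Kiss1 at -1.28 (SE 0.49), Pomc at -1.06 (SE 0.45), Sim1 at -0.82 (SE 0.17) and Cartpt at -0.81 (SE 0.23). Of all 20 hypothalamic markers, 8 were higher and 12 lower. edgeR and DESeq2 called Sim1 and Cartpt, where they called 0.554% and 1.22% of all genes. The part of dissection or cell makeup in the Tal1 and Lyl1 values was not tested.

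Among the genes whose level over the 9 RNA-seq libraries was most like that of Tal1 were Cbx8 (Pearson r 0.963), Egfem1 (0.960), Tgfb3 (0.958) and Matn1 (0.957). This is a description over 9 libraries of both genotypes, and the same libraries gave the Tal1 difference. Of these, Matn1, a matrix protein of cartilage, was called higher at 4.46 (SE 0.46, limma adjusted p 0.00173, and 0.00367 without the filter that it passed through the Δ/D329A libraries), and Cbx8, a Polycomb component, differed by 1.11 (SE 0.27, adjusted p 0.241). Among the members r with Tal1 was 0.72 for Lyl1, 0.27 for Lmo2 and 0.09 for Gata2. Of the genes within 20 kb of a member start, Stil, next to Tal1, had 9, 11, 10, 7 and 4 reads in +/+ and 16, 5, 11 and 8 in Δ/D329A and differed by 0.61 (SE 0.35, limma adjusted p 0.455). Nacc1 and Trmt1 next to Lyl1 differed by 0.09 (SE 0.20) and 0.20 (SE 0.19). Gm13256 next to Gata3 had no read in any library, and 4930412O13Rik, 9230102O04Rik, Gm13262 and 4931422A03Rik, also within 20 kb of a member start, had at most 3 reads in a library.

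At their promoters (1500 bp before to 500 bp after the start in the RNA-seq table), 4 of the 7 genes carried high H3K27me3 in +/+ hypothalamus. Relative to the input of the same animal, Tal1 and Gata3 stood at log2 2.98 ± 0.21 and 2.98 ± 0.30 (SD, n = 3), each in the 99.5th percentile of all promoters. Gata2 at 2.81 ± 0.37 was in the 99th and Tal2 at 2.47 ± 0.51 in the 97.9th percentile. Lmo2 was in the 82.7th, and Lyl1 and Gata1 in the 41.3rd and 40.3rd. Lyl1 had the highest H3K36me3 of the 7 and lay in the 97th percentile at log2 0.64 ± 0.60. Lmo2 had low H3K4me3 at its first start and a high level at the start 103970129 inside the gene, at log2 5.12 ± 0.14 over input.

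Levels of H3K27me3 at the Tal1 promoter were 6.89, 7.36 and 7.54 RPM per 2 kb tile in +/+ and 5.28, 5.67 and 5.46 in Δ/D329A. The groups did not overlap, but the log2 difference of -0.40 (SE 0.10) had a limma adjusted p of 0.407 over 25952 promoters. Gata2 and Gata3 promoters also did not overlap, with 5.19, 5.40 and 5.88 against 3.90, 4.55 and 5.10 RPM at Gata2 and 8.37, 7.00 and 7.46 against 5.41, 6.72 and 6.47 at Gata3. Of all promoters, 7.32% were lower without overlap in this way. Their log2 differences were -0.28 (SE 0.13) and -0.29 (SE 0.14), with limma adjusted p of 0.573 and 0.582. Tal2 promoters overlapped, at 5.66, 4.74 and 5.23 in +/+ and 5.55, 5.04 and 5.97 in Δ/D329A.

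Promoter H3K4me3 did not separate the genotypes at Tal1, with 1.36, 1.23 and 1.22 RPM in +/+ and 1.60, 1.34 and 0.775 in Δ/D329A. At the Tal2 promoter it was 2.69, 3.06 and 3.68 in +/+ and 0.627, 2.60 and 0.839 in Δ/D329A, without overlap, as were 4.22% of all promoters in this direction, and replicate 2 of Δ/D329A lay near the +/+ range. The log2 difference was -1.39 (SE 0.54), with an unadjusted p of 0.0461 and a limma adjusted p of 1. At Lyl1, whose RNA did not overlap, H3K4me3 was 1.61, 1.96 and 1.28 against 1.91, 1.85 and 1.13 RPM, and the log2 difference had a 95% interval from -0.83 to 0.82.

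Promoter H3K36me3 was at most 0.7 RPM in +/+ at the genes other than Lyl1. At Gata3 it was 0.0875, 0.0237 and 0.131 RPM in +/+ and 0.219, 0.197 and 0.21 in Δ/D329A, a log2 difference of 0.82 (SE 0.27, limma adjusted p 0.718). At Lyl1 it was 0.941, 1.28 and 0.785 against 1.12, 1.01 and 1.29.

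**Figure D2:**
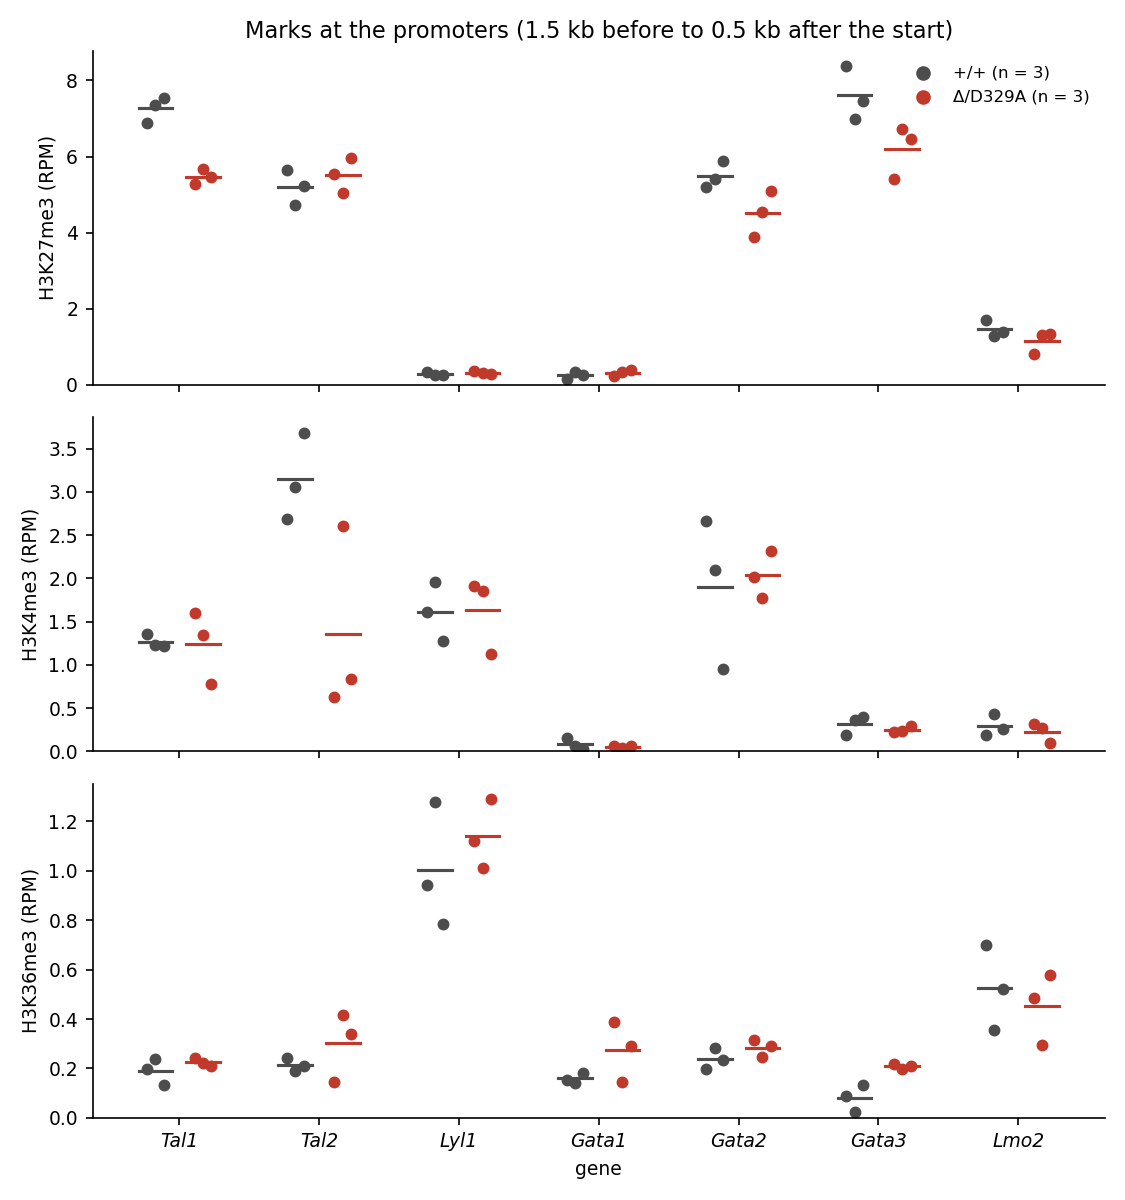
H3K27me3, H3K4me3 and H3K36me3 at the promoters of the 7 genes in RPM per 2 kb tile, with 1 point per animal (3 +/+ and 3 Δ/D329A) and a bar at the mean. H3K27me3 is high at Tal1, Tal2, Gata2 and Gata3 and lower in Δ/D329A in every animal at Tal1, Gata2 and Gata3 but not at Tal2.

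At promoters, limma called 0 of 7 members for each mark, against 0% of all promoters for H3K27me3, 0% for H3K4me3 and 0.0231% for H3K36me3. An unadjusted p under 0.05 was reached by 1 member per mark, Tal1 for H3K27me3, Tal2 for H3K4me3 and Gata3 for H3K36me3, where 8.9%, 3.47% and 6.57% of all promoters did so. edgeR on whole reads called 0 for each, against 1.51%, 0.312% and 0.0539% of the promoters it tested. A p that misses the threshold does not show that a mark is equal in both genotypes.

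In wider windows, from 20 kb before to 20 kb after the start, the 3 marks at Tal1 each separated the genotypes. H3K27me3 averaged 3.92, 3.60 and 4.29 RPM in +/+ and 2.49, 3.03 and 2.59 in Δ/D329A. H3K4me3 averaged 1.37, 1.23 and 0.961 in +/+ and 2.32, 1.85 and 1.91 in Δ/D329A. H3K36me3 averaged 0.405, 0.493 and 0.429 against 0.736, 0.637 and 0.635. H3K27me3 was thus lower, and H3K4me3 and H3K36me3 higher, in every mutant animal, as was so for 12.2%, 1.05% and 10.1% of all windows in the same directions. The log2 differences were -0.53 (SE 0.10), 0.73 (SE 0.15) and 0.51 (SE 0.09), with limma adjusted p of 0.168, 1 and 0.124, and none passed. edgeR on whole reads called all 3.

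Around Gata3, H3K36me3 averaged 0.202, 0.239 and 0.241 RPM in +/+ and 0.466, 0.381 and 0.442 in Δ/D329A, without overlap. The log2 difference of 0.69 (SE 0.09) had a limma adjusted p of 0.0659, and edgeR called it. The call was also made by limma without Δ/D329A replicate 2 and with 0.5 in place of 0.1 RPM added before the logarithm. H3K27me3 there was 5.72, 5.57 and 6.01 against 4.23, 5.0 and 5.07, a difference of -0.27 (SE 0.09, adjusted p 0.292). Around Gata2, H3K27me3 was 3.55, 3.70 and 3.97 against 2.91, 3.04 and 3.03, a difference of -0.31 (SE 0.07, limma adjusted p 0.188). Lmo2 went the other way, with an H3K27me3 difference of 0.19 (SE 0.07, adjusted p 0.345). Around Lyl1 the 95% intervals ran from -0.40 to 0.41 for H3K27me3, from -0.22 to 0.27 for H3K4me3 and from -0.15 to 0.11 for H3K36me3.

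**Figure D3:**
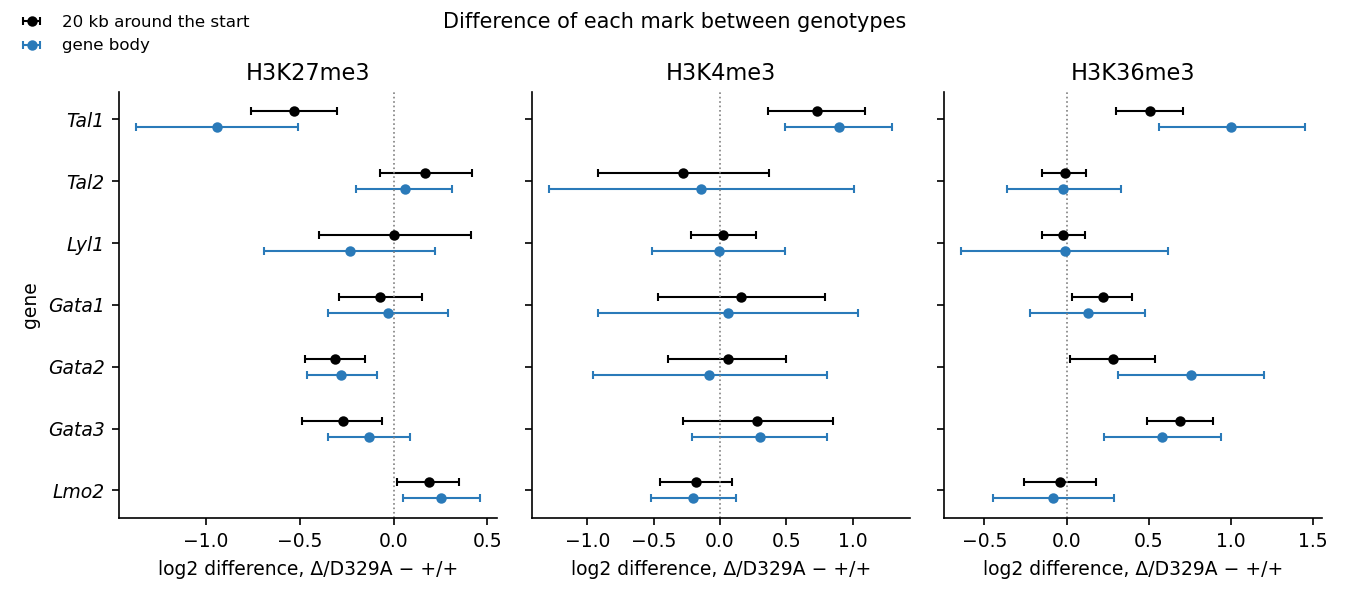
Log2 difference of each mark (Δ/D329A minus +/+) at the 7 genes, averaged over 20 kb on both sides of the start (black) or over the gene body (blue), with 95% intervals from limma (n = 3 animals per genotype). For H3K27me3 the intervals lie below 0 at Tal1 and Gata2, and at Gata3 around the start, and above 0 at Lmo2, for H3K4me3 they lie above 0 at Tal1, and for H3K36me3 above 0 at Tal1, Gata2 and Gata3, and at Gata1 around the start.

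Over the wider windows limma called 0 of 7 members per mark, against 0% of all windows for H3K27me3 and H3K4me3 and 0.0385% for H3K36me3. Unadjusted p under 0.05 were reached by Tal1, Gata2, Gata3 and Lmo2 for H3K27me3, by Tal1 for H3K4me3 and by Tal1, Gata1, Gata2 and Gata3 for H3K36me3, where 13.1%, 1.88% and 16% of all windows did so. edgeR called 1, 1 and 2 members, against 0.696%, 0.261% and 2.03% of the windows it tested. Gene bodies from 500 bp after the start, added after seeing the data, gave 0 calls by limma per mark, against 0.00845%, 0% and 0% of all bodies for H3K27me3, H3K4me3 and H3K36me3. There 3, 1 and 3 members reached an unadjusted p under 0.05, against 13%, 3.53% and 16.1% of all bodies. edgeR called 1, 0 and 3, the latter Tal1, Gata2 and Gata3, against 0.164%, 0% and 0.698%.

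In the body of Tal1, mean H3K27me3 was 5.24 RPM in +/+ and 2.72 in Δ/D329A, which did not pass the test (log2 difference -0.94, SE 0.18, limma adjusted p 0.342). H3K4me3 was 3.04, 2.56 and 1.97 in +/+ and 5.14, 4.37 and 4.65 in Δ/D329A (0.90, SE 0.16), and H3K36me3 was 0.330, 0.373 and 0.398 against 1.05, 0.636 and 0.864 (1.0, SE 0.18). In the body of Gata2, H3K36me3 was 0.165, 0.171 and 0.242 against 0.315, 0.371 and 0.509 (0.76, SE 0.18), while its RNA overlapped between genotypes. In the body of Gata3 it was 0.298, 0.351 and 0.309 against 0.530, 0.432 and 0.635 (0.58, SE 0.14), with 9 and 11 reads of Gata3 RNA over all libraries. Both bodies thus had higher H3K36me3 in every mutant animal at levels below 1 RPM, as had 7.14% of all bodies at any level. H3K36me3 lay below the input in both genotypes, at mean log2 ratios of -1.56 in +/+ and -1.18 in Δ/D329A for Gata2. For Gata3 these ratios were -1.19 and -0.63, and for Tal1 -1.04 and -0.16.

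Single 2 kb tiles, taken every 1 kb where the mean was at least 1 RPM and added after seeing the data, located the differences at Tal1. Neighbouring tiles overlap by 1 kb and are not independent. Since a tile can pass this minimum through 1 genotype alone, the tiles were tested again without it, over the 2489801 tiles with a mean input of at least 0.1 RPM, where 0.0174%, 0.0118% and 0.000442% of tiles were called for H3K27me3, H3K4me3 and H3K36me3. H3K27me3 was called lower in 10 of the 34 Tal1 tiles tested, where 0.173% of all tiles were called. Of these, 9 run from 115058001 to 115068000 and 1 starts at 115069001. At the tile from 115061001 the level was 5.92, 5.64 and 5.80 RPM in +/+ and 1.81, 3.94 and 1.68 in Δ/D329A, and H3K27me3 fell by 1.30 on the log2 scale (SE 0.20, limma adjusted p 0.000107). Over the 10 tiles the log2 difference was between -1.30 and -0.69, and no tile upstream of the start was called. Chosen by the input, 8 tiles were called, from 115059001 to 115068000, with 115061001 at a limma adjusted p of 0.00194.

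H3K4me3 rose in 4 of the 12 Tal1 tiles tested, from 115061001 to 115066000, where 0.781% of all tiles were called in either direction. At 115062001 the level was 8.03, 5.72 and 5.32 RPM in +/+ and 20.1, 17.3 and 23.4 in Δ/D329A (log2 difference 1.67, SE 0.25, limma adjusted p 0.00024). At 115064001 it was 0.316, 0.466 and 0.525 against 5.02, 2.44 and 4.52 (2.89, SE 0.34), a tile whose +/+ mean lay below the minimum. Chosen by the input, 3 tiles were called higher, with limma adjusted p of 0.00321 at 115062001, 0.00197 at 115063001 and 0.000226 at 115064001. The 1 kb that the tiles from 115062001 and 115063001 share, 115063001 to 115064000, held at least 109, 69 and 70 reads in +/+ and at least 238, 177 and 285 in Δ/D329A.

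This kilobase covers the first coding exon of Tal1, whose coding part spans chr4:115063131-115063576 and is exon 3 of transcript Tal1-201. It contains the CpG-rich window with 2 E-boxes printed above. None of the 4 GENCODE or 10 RefSeq starts of Tal1 lies in these tiles, and the last of them, 115059508, is 3493 bp before the shared kilobase. The tile from 115056001 holds the first annotated start and also the later start 115057811. There H3K4me3 overlapped, with 8.10, 7.38 and 4.99 RPM in +/+ and 6.33, 7.18 and 4.32 in Δ/D329A (log2 difference -0.20, SE 0.27, limma adjusted p 0.999). In the promoter window of the first start, the means were 1.27 RPM in +/+ and 1.24 in Δ/D329A. In the window of the same size at 115057811 they were 7.07 and 6.14.

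H3K36me3 was higher downstream of the H3K4me3 site. Of the 5 Tal1 tiles at the minimum, 3 were called, where 0.0247% of all tiles were, but these 3 had +/+ means below 1 RPM and passed only through Δ/D329A, so that the count is no support. Chosen by the input, 2 tiles were called, at 115066001 and 115067001. At 115066001 it was 0.350, 0.569 and 0.523 RPM in +/+ and 2.82, 1.08 and 1.68 in Δ/D329A (log2 difference 1.68, SE 0.27, limma adjusted p 0.0416), and at 115067001 it was 0.306, 0.427 and 0.471 against 2.04, 1.28 and 1.36 (1.72, SE 0.27, adjusted p 0.0331). At 115069001, over the last exon, it was 1.05, 0.853 and 1.05 against 2.48, 1.67 and 2.26 (1.03, SE 0.21), with a limma adjusted p of 0.268 among tiles chosen by the input. With the minimum, the count of calls was 0 without Δ/D329A replicate 1, and 1 without Δ/D329A replicate 3 or +/+ replicate 1. With the minimum, H3K27me3 calls at Tal1 numbered 7 to 13 and the H3K4me3 calls 3 or 4 when any 1 animal was left out.

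**Figure D4:**
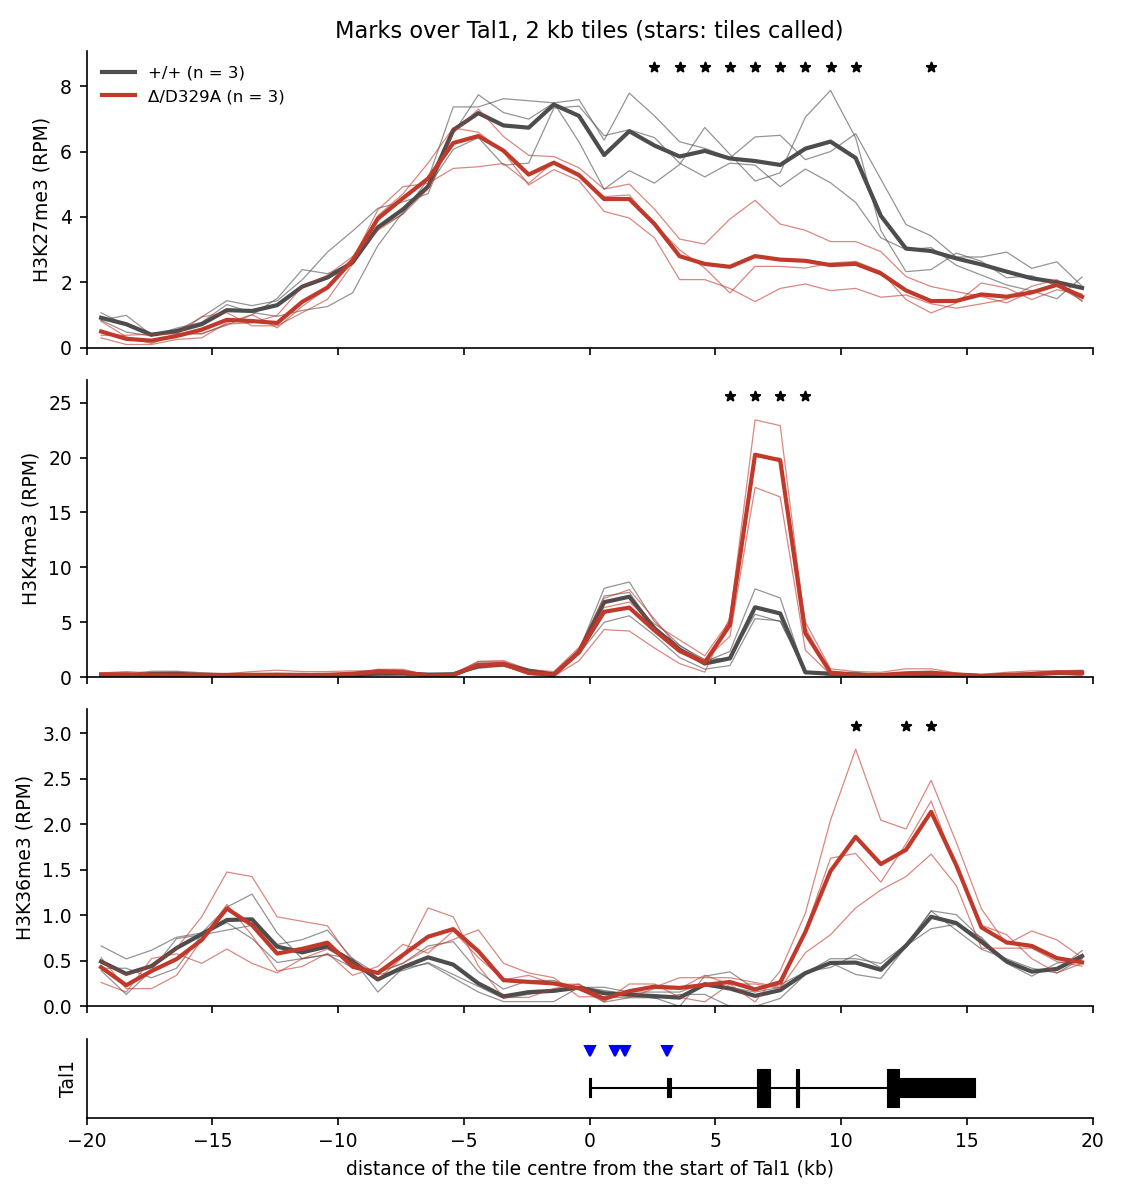
H3K27me3, H3K4me3 and H3K36me3 (RPM per 2 kb tile) against the distance of the tile centre from the start of Tal1, with thin lines for animals, thick lines for means of 3 per genotype and stars for tiles called among those with a mean of at least 1 RPM. Below are the exons of Tal1-201 and triangles at the 4 GENCODE starts. H3K27me3 is called lower from 2574 bp after the start, H3K4me3 is higher at the first coding exon but not at the starts, and H3K36me3 is higher after it, where the starred tiles reached 1 RPM only through Δ/D329A.

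Tiles of the partner genes gave fewer calls. At Gata2, H3K27me3 was called lower in 5 of 37 tiles, 3 from 88187001 to 88191000 upstream and 2 from 88201001 to 88204000 inside the gene. Of the former, 88189001 had a Δ/D329A mean below 1 RPM and passed the minimum only through +/+. Its limma adjusted p was 0.204 among tiles chosen by the input, at the same log2 difference of -1.03. At 88188001 it was 2.27, 3.42 and 1.93 RPM in +/+ and 0.941, 0.993 and 1.22 in Δ/D329A (log2 difference -1.17, SE 0.23, limma adjusted p 0.00893). In the same tile H3K4me3 formed a peak of 9.49, 6.98 and 8.74 against 7.59, 9.70 and 10.9, and did not separate the genotypes. The Gata2 count was 0 without +/+ replicate 2 or Δ/D329A replicate 1, and 1 without +/+ replicate 1, +/+ replicate 3 or Δ/D329A replicate 3. Among tiles chosen by the input, only 88188001 was called (limma adjusted p 0.0494).

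At Gata3, H3K27me3 was called lower in 1 of 53 tiles, at 9891001 upstream of the table start, with 7.05, 6.72 and 7.78 against 3.83, 5.96 and 4.21 RPM (log2 difference -0.63, SE 0.15, limma adjusted p 0.0497). The call was lost without any 1 animal other than Δ/D329A replicate 2, without which there were 3. The call was also lost among tiles chosen by the input (limma adjusted p 0.304), although the log2 difference there was the same. At the annotated coding start of Gata3, 9878600, H3K4me3 was 4.17, 3.52 and 3.02 in +/+ and 6.18, 7.45 and 6.10 in Δ/D329A. The groups did not overlap, as was so in this direction for 1.51% of all annotated starts, and the log2 difference of 0.87 (95% interval 0.42 to 1.32) had an unadjusted p of 0.00342 and a limma adjusted p of 1.

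**Figure D5:**
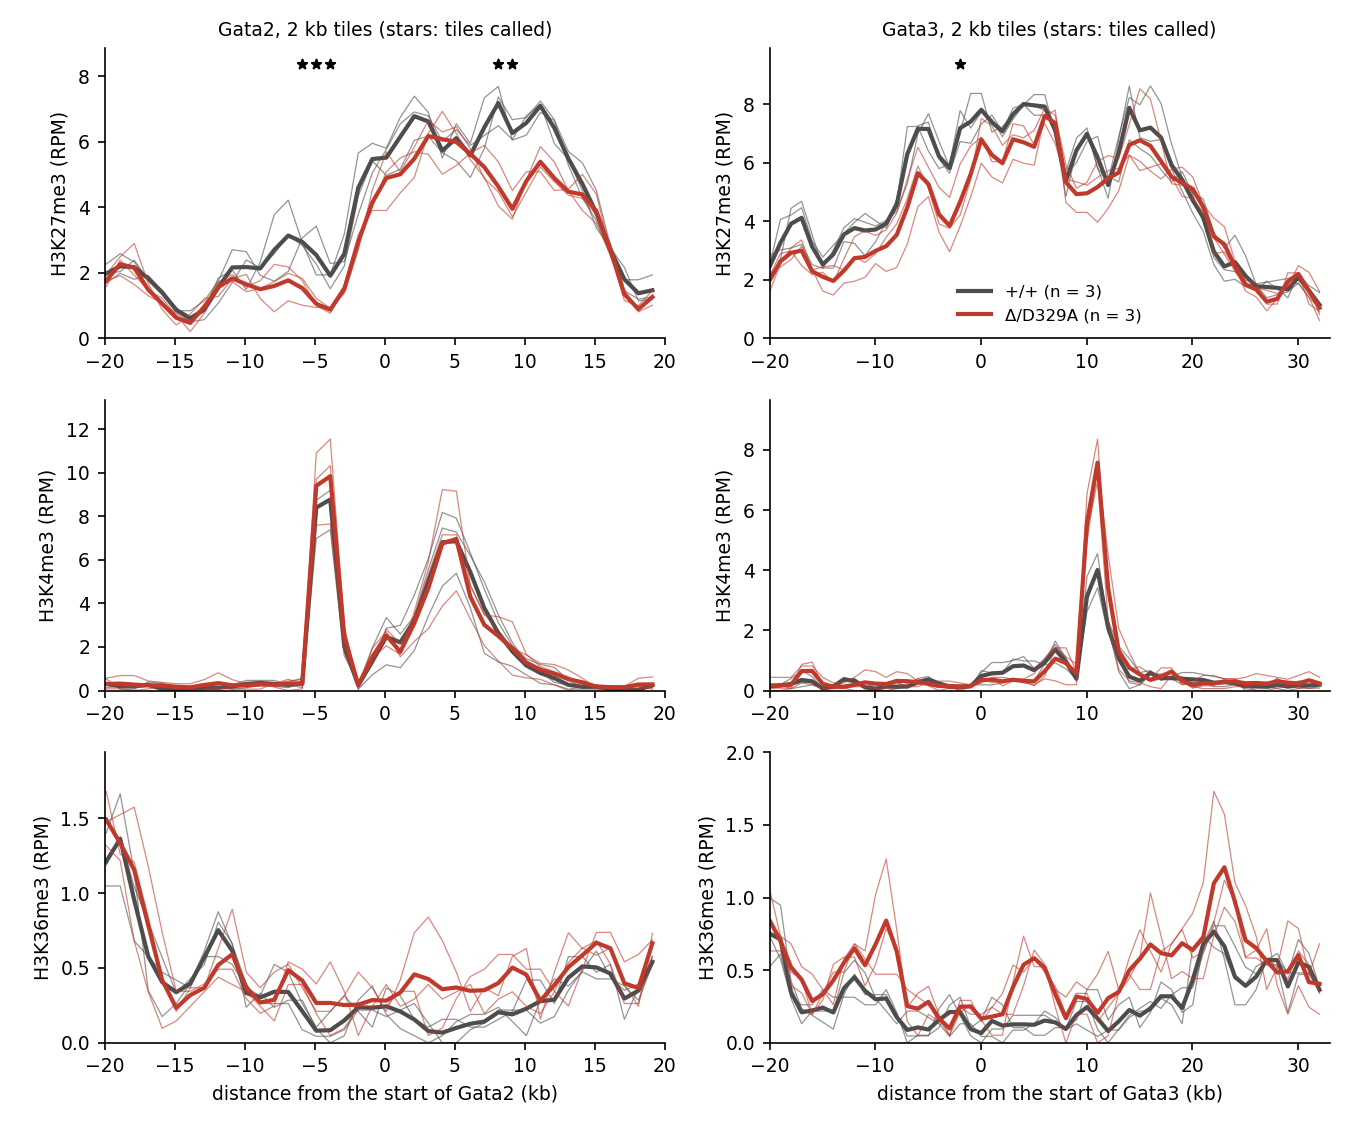
The 3 marks (RPM per 2 kb tile) against the distance of the tile centre from the table start of Gata2 (left) and Gata3 (right), with thin lines for animals, thick lines for means of 3 per genotype and stars for tiles called among those with a mean of at least 1 RPM. H3K27me3 is called lower in 5 tiles at Gata2 and 1 at Gata3, and no H3K4me3 tile is called among 15 and 5 tested. For H3K36me3, 3 tiles were tested at Gata2 without a call and 0 at Gata3.

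At Tal2, H3K4me3 was called lower in 1 of 2 tiles tested, at 53779001 over the start, with 2.91, 3.26 and 3.88 RPM in +/+ and 0.753, 2.68 and 0.904 in Δ/D329A (log2 difference -1.36, SE 0.34, limma adjusted p 0.045). The call was lost without +/+ replicate 3 or Δ/D329A replicate 1, and there were 2 without +/+ replicate 1, +/+ replicate 2 or Δ/D329A replicate 2. It was also lost among tiles chosen by the input (limma adjusted p 0.607), although the log2 difference there was the same. No tile was called at Lyl1, with 19 tested for H3K27me3, 20 for H3K4me3 and 17 for H3K36me3, nor at Lmo2, with 41, 6 and 7. At Gata1 0 tiles reached the level for testing.

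At the annotated protein-coding starts, a choice made after seeing the data, limma called 0 of 13 member starts for each mark, against 0%, 0% and 0.00965% of all starts for H3K27me3, H3K4me3 and H3K36me3. An unadjusted p under 0.05 was reached by 7, 2 and 0 of them, against 8.92%, 3.23% and 6.33% of all starts. Of the 7, 3 are Lmo2 starts that hold the same tiles, so that they count as 5 among 11 distinct measurements. edgeR called 1, 0 and 0, against 1.79%, 0.178% and 0.0354%. The call of edgeR was H3K27me3 at the Tal1 start 115059508, with 5.32, 6.03 and 6.69 RPM in +/+ and 2.72, 3.78 and 3.38 in Δ/D329A (limma log2 difference -0.86, 95% interval -1.23 to -0.48, adjusted p 0.333). At the Lmo2 start 103970129, H3K27me3 was higher in every mutant animal, as at 6.32% of all starts, with 0.944, 0.991 and 1.07 against 1.75, 1.30 and 2.13 (0.71, 95% interval 0.25 to 1.16, limma adjusted p 0.422). H3K4me3 at that start overlapped, with 25, 27.6 and 26.4 against 17.5, 28.2 and 22.9.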

How the data were processed

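RNA-seq used 5 +/+ and 4 Δ/D329A libraries, 1 per animal, and 1 more Δ/D329A library had been dropped by the authors for its quality. The authors mapped reads to GRCm38 with HiSat2 and deposited log2 RPKM from SeqMonk, with 0.9 reads in place of none. Whole reads were recovered for 100% of 25965 genes within 0.02 reads. The authors mapped ChIP-seq reads with Bowtie, and the deposited signal is the reads in 2000 bp tiles every 1000 bp scaled to uniquely mapped reads (RPM), without input subtraction. All of these tile values were whole reads within 0.01.

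Groups were compared two-sided with limma 3.58.1 in R 4.3.3, with a trend on the mean and Benjamini-Hochberg adjustment over all genes or regions. RNA-seq was fitted on log2 RPKM where 4 or more libraries had 0.1 RPKM or more, without mitochondrial genes, and called at 0.01. Marks were fitted on log2(RPM + 0.1) and called at 0.05. A tile belongs to a region that holds its centre. Single genes other than Tal1 were also compared with 6 exact permutation tests, of which that of Gata1 is not given, since most of its values are the 0.9 reads set in place of none. edgeR 4.0.16 and DESeq2 1.42.0 were run on whole reads as alternatives, where edgeR called 77 of 13890 genes and DESeq2 249 of 20381. Each fit was first checked on simulated data. There the ChIP-seq fits other than the wider windows and the H3K4me3 tiles of 1 RPM or more missed many of the smaller changes. Those of H3K27me3 and H3K36me3 at promoters, starts and tiles of 1 RPM or more also missed many of the larger ones. So did those of each mark in tiles chosen by the input. Other steps used Python 3.11.15 with pandas 2.3.3, numpy 2.4.6, matplotlib 3.10.9 and scipy 1.17.1.

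The members, the gene lists and the regions were chosen with earlier results of these data known. The genes named are the members, their neighbours within 20 kb, the called genes and the 3 largest differences of each list, and the 5 genes most like Tal1, and the others (Ldb1, Cpa3, Pmch, Hcrt and those named by an unadjusted p or another tool) were picked after their values were seen. Some genes that this rule names are not reported here. Intervals of read ratios cover counting error only. ChIP p-values rest on 3 animals per genotype. The bisulfite libraries were not analysed here.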

Additional observations from a re-analysis of the deposited data

Results flagged for a closer look

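In 5 of the 118 groups of libraries looked at, 1 library lay apart from the others of its genotype by Dixon's criterion, and chance flags about 1 in 20 groups. None of the 7 members was among them. They were the marker genes Pomc at 5.12 log2 RPKM in +/+ replicate 1 (others 3.26 to 3.57), Hmx2 at -4.21 in Δ/D329A replicate 4 (-1.44 to -1.01, from 1 read), Trem2 at 0.26 in +/+ replicate 1 (-1.10 to -0.80), C1qb at 3.30 in Δ/D329A replicate 2 (4.14 to 4.28) and Cga at -4.28 in +/+ replicate 1 (0.31 to 1.61, from 0 reads).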

How the results depend on the processing

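There were 672 alternative values for 51 differences of the members. Of these, 660 counted as unchanged, 11 passed the threshold where the reported value did not, and 1 moved. The 660 stayed on their side of the threshold, and none of those beyond 1 SE of 0 reversed. They include 49 changes of sign in differences within 1 SE of 0. The 1 counted as moved was the Tal1 RNA difference, which was 1.06 with 1 RPKM added. Among the 660, sizes changed too. The Lyl1 RNA difference of 1.71 was 0.24 with 1 RPKM added, and that of H3K27me3 around Gata3, -0.27, came as near to 0 as -0.02. Of the other members, none was called in RNA under an alternative that tested it, where Tal2, Gata1 and Gata3 were tested only without the filter and by DESeq2. Lyl1 was tested neither by edgeR nor with a higher RPKM filter.

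Members called among 7 around the starts numbered 1 for H3K27me3, 1 for H3K4me3 and 2 for H3K36me3 with edgeR, 1 for H3K27me3 with only regions at or above the median, and 1 for H3K36me3 with 0.5 RPM added. When 1 animal was left out, the H3K36me3 number was 0 to 1. In gene bodies edgeR called 1 for H3K27me3 and 3 for H3K36me3. At annotated starts, H3K27me3 gave 1 with quantile normalization, with edgeR and with only starts at or above the median. These alternatives for bodies, starts and tiles were chosen after seeing the data.

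Called tiles numbered, with 1 animal left out, 0 to 6 at Gata2 and 0 to 3 at Gata3 for H3K27me3, 0 to 2 at Tal2 for H3K4me3 and 0 to 3 at Tal1 for H3K36me3. Quantile normalization gave 3 at Gata2, 0 at Gata3 and 0 at Tal2, 0.5 RPM added gave 2 at Tal2, and a block for 2 sets of animals, divided by the mitochondrial signal of their H3K27me3 libraries and named by no label, gave 0 at Tal2. Tiles chosen by the input, without a minimum of the mark, gave 1 at Gata2, 0 at Gata3 and 0 at Tal2, with the log2 differences of these tiles unchanged. The cause was not tested.

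Samples share only a replicate number, and the deviations of same-numbered animals were at most weakly correlated (correlations from -0.261 to 0.235). For H3K27me3 each same-numbered pair was the closest match between the genotypes, at correlations from 0.0125 to 0.0776. With a replicate block the tile calls were 3 at Gata3 and 2 at Tal2, and no call over genes or regions changed. Depth limits Tal2, Gata1 and Gata3, with at most 11 RNA reads per genotype.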

Other observations

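Gata6, chosen after its values were seen and below the level for testing, had 0 reads in each of the 5 +/+ libraries and 4, 1, 2 and 5 reads in the Δ/D329A libraries. Gata4 had 2 reads in 1 library of each genotype and 0 in the others, and Gata5 had no read in any library.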
